A study of Mus musculus with 82 samples.

Results

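The transcripts described here are those of fibroblasts and of the extracellular matrix: collagens, the proteins that process and cross-link them, elastic fibre proteins, small proteoglycans with dermatopontin, adhesive and matricellular proteins, hyaluronan and versican genes, and receptors or enzymes on the fibroblast surface. 50 genes were listed by symbol for what they encode, though earlier results of these data were known when the list was made. Where a gene had several probe sets the brightest, on average over the 82 arrays, was read. Of the 50, 49 had a probe set among the 12394 genes that the array measured, and Fbn1, which encodes the microfibril protein fibrillin, had none. 47 of the 49 were among the 8593 genes tested, which had to exceed the array's median in at least 3 of 53 specimen averages. Has2, a hyaluronan synthase, and Col8a1, a short-chain collagen, were above it in 0 of 53 and are not described further. Of the 47 tested, Tnc passed in 4 averages, Thbs1 in 10, Thbs2 in 11 and Col12a1 in 19, and the other 43 passed in 36 or more. The 4 averages of Tnc were all of whole granuloma on day 7 or 17, so that Tnc was tested only because it was high there. Its values are given without a test, though the counts of members below hold it. Col12a1 passed mainly in averages of captured cells.

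The arrays came from BALB/c.iMycEμ mice, whose Myc transgene sits in the immunoglobulin heavy chain locus and drives plasma cell tumors. All mice, aged at least 8 weeks, had received 0.5 ml of pristane oil into the peritoneum, and no group without the transgene or without pristane was analysed here. Oil granulomata, the inflamed tissue that forms around the oil, were sectioned, and cells stained by methyl green pyronin as plasma cells were cut out by laser ("captured cells"), while undissected sections gave "whole granuloma" RNA, which holds plasma cells as well. In study 2 each of the tissue types came from 3 specimens on each of days 7, 17, 33, 49 and 105. Study 1, an independent cohort, had captured cells of 4, 4, 3, 3 and 1 specimens on days 7, 17, 33, 46 and 104 and whole granuloma of 2, 2, 3 and 1 specimens on days 7, 17, 33 and 104. Its captured cells of day 7 include an array titled 003, kept apart from code 3. Those of day 33 include an array without a code, also kept as a specimen of its own. The titles do not settle either choice. The labels do not say whether a specimen is 1 animal, so the p-values measure the spread between specimens. Values are log2 intensities, a specimen is called by the number in its title ("code"), and a difference was called when limma's Benjamini-Hochberg adjusted p over all 8593 genes was under 0.05.

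Fibroblasts build connective tissue by secreting fibrillar collagen precursors, which are folded with chaperones, trimmed by proteases and cross-linked outside the cell, while small leucine-rich proteoglycans set the width and spacing of the fibrils. Basement membranes are another network, of type IV collagen and nidogen, that underlies vessels, muscle, fat and the mesothelium lining the peritoneum. Around a foreign material such as oil, fibroblasts lay down matrix as part of granuloma formation, and matricellular proteins such as periostin and tenascin-C are known for their appearance in healing tissue. Plasma cells secrete antibody and are not known as makers of fibrillar collagen.

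RefSeq promoter sequences (build GRCm38.p6) were matched for 31 of the 50 genes, at 37 starts. Below are the 150 bases before the start of 4 members that fell late in both tissue types (Postn, at the downstream of its 2 starts, Ogn, Dpt and Nid1) and of 2 collagens whose late change did not pass. Whether the course of the 2 differed from that of the 4 was not tested. Capitals mark a match on either strand to 1 of 4 motifs. The first is TATAAA, found where the general transcription machinery binds. The next is CCAAT, which the factor NF-Y binds, and the others are TGAGTCA, known as the AP-1 site, and, for the TEAD factors of the Hippo pathway, GGAATG.
Postn, chr3:54360957-54361106, plus strand: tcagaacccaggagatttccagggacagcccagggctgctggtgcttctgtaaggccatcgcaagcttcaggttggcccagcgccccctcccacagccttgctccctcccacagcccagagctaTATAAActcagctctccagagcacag
Ogn, chr13:49607865-49608014, plus strand: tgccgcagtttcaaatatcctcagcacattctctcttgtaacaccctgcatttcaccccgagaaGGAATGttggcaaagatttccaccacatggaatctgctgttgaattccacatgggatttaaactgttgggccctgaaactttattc
Dpt, chr1:164796513-164796662, plus strand: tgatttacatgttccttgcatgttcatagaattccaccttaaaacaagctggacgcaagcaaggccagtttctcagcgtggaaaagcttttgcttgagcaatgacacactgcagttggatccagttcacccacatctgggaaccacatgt
Nid1, chr13:13437452-13437601, plus strand: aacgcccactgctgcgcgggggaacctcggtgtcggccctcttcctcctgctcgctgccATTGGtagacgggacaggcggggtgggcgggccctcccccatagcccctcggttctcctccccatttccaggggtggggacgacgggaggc
Col1a2, chr6:4505468-4505617, plus strand: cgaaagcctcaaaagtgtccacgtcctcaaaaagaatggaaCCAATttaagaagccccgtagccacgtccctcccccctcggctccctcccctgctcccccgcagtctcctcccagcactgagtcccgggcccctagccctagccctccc
Col3a1, chr1:45311388-45311537, plus strand: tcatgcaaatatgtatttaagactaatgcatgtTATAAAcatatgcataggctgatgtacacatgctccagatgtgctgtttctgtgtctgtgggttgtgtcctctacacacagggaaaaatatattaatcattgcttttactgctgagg
In the 250 bases before a start, the TATA box (the first motif) stood at 16.2% of the 37 member starts and at 12.4% of 32851 starts of all genes, the CCAAT box at 27.0% and 33.8%, the AP-1 site at 2.7% and 4.5%, and the TEAD site at 13.5% and 12.6%. Of the 8 matched genes that fell in both tissue types, the TATA box stood before 2 (Ogn and Postn), the TEAD site before 2 (Nid1 and Ogn), the CCAAT box before 1 (Nid1) and the AP-1 site before 0. Of the 23 other matched members the same motifs stood before 3, 3, 9 and 1. The shares were close to those of all genes, and a match of letters is no evidence of binding.

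The array medians lay between 7.113 and 7.335 in whole granuloma of study 2, 5.309 and 5.641 in its captured cells, 5.727 and 5.825 in whole granuloma of study 1 and 4.973 and 5.111 in its captured cells, so that levels of the 2 tissue types were compared only after quantile normalization over all arrays, and days within a tissue type on the values as deposited. The difference between 3′ and 5′ control probe sets, which grows as RNA shortens, averaged 1.61 ± 0.13 (SD over arrays) in whole granuloma of study 2 and 4.14 ± 0.90 in its captured cells, and 3.19 ± 0.36 and 4.49 ± 0.68 in study 1. Of 9 plasma cell markers, 8 or 9 were above the array median in every specimen of both tissue types. The same held for the 9 macrophage markers, so that these counts do not set the captured cells apart. Col1a2, Col3a1, Dcn, Lum and Fn1 were above the array median in 53 of 53 averages, captured cells included. In a bulk sample, fewer cells of a type and less RNA per cell cannot be told apart. Captured code 2 of day 49 of study 2 stood low for many members (Col3a1 at 9.49 against 13.29 and 12.55 in codes 1 and 3), and an array of captured cells of that day had the smallest control difference, 0.46. Whole granuloma code 3 of day 17 stood low for collagens (Col1a2 at 11.90 against 14.00 and 13.95).

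The change from day 7 to day 105 asked how the granuloma differed between its early and its late stage. In whole granuloma of study 2, 23 of the 47 members fell and 0 rose. Over all genes 12.9% fell and 6.05% rose, and the median change was −1.14 on the log2 scale for the members and −0.03 for all genes. The fibroblast surface genes and the type VI and XIV collagens fell, the fibrillar collagens did not pass, and the largest decreases were those of Postn, Ogn, Pcolce, Sparcl1 and Dpt. 1 of the 23 was Tnc. On day 105, 17 of the 47 members, Tnc again among them, had all 3 specimens below all 3 of day 7, against 20.8% of all genes.

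Postn encodes periostin, a matricellular protein of healing and fibrotic tissue. Its values were 10.19, 10.45 and 9.28 on day 7 and 7.56, 6.69 and 7.09 on day 105, so that the days did not overlap. The decrease was 7.28-fold (log2 −2.86, SE 0.37, adjusted p = 1.49e-06, limma). Ogn encodes osteoglycin, a small leucine-rich proteoglycan, and read 11.24, 10.77 and 10.54 on day 7 and 10.01, 6.36 and 7.62 on day 105. Code 1 of day 105 was just below the day 7 values, while codes 2 and 3 were far below them (log2 −2.86, SE 0.68, adjusted p = 0.00253, limma). Dpt, dermatopontin, a binder of decorin and collagen, read 11.14, 11.16 and 11.37 on day 7 and 10.31, 7.44 and 7.75 on day 105, again with code 1 the highest late specimen (log2 −2.72, SE 0.56, adjusted p = 0.000558, limma). Without code 2 of day 105, the call on Ogn was lost, and no single specimen ended the calls on Postn, Dpt, Pcolce or Sparcl1.

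Of the genes that process collagen, 3 of 4 fell. Pcolce encodes the enhancer of the protease that trims procollagen, and read 11.30, 11.31 and 10.16 on day 7 and 8.57, 7.35 and 8.30 on day 105, without overlap (a 7.21-fold decrease, SE 0.49 on the log2 scale, adjusted p = 7.74e-05, limma). Serpinh1, the collagen chaperone Hsp47 of the endoplasmic reticulum, fell by 1.45 and Loxl1, a cross-linking enzyme that acts on elastin, fell by 1.42 on the log2 scale. Lox, the lysyl oxidase of collagen, was at −0.36 (adjusted p = 0.658, limma).

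The fibrillar collagens were the group without a call, 0 of 5, with changes between −0.89 and −0.54. Col1a1 and Col1a2 encode the chains of type I collagen and Col3a1 that of type III. Col3a1 read 14.11, 14.18 and 13.71 on day 7 and 13.60, 13.13 and 13.13 on day 105, and all 3 late specimens were below the early ones (log2 −0.71, SE 0.43, adjusted p = 0.264, limma). Col1a1 read 10.18, 10.73 and 8.33 on day 7 and 8.88, 9.02 and 9.46 on day 105, with overlap because of code 3 of day 7 (log2 −0.63, SE 0.58, adjusted p = 0.495). Col1a2 was at −0.54 (SE 0.44). The standard errors leave room for changes of the size of those that passed in other groups.

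The other collagens fell in 4 of 5. The 3 chains of type VI collagen, which forms beaded filaments around cells, fell by 1.76 (Col6a1), 1.81 (Col6a2) and 1.58 (Col6a3) on the log2 scale. Col6a1 read 11.95, 12.15 and 10.67 on day 7 and 10.46, 9.19 and 9.84 on day 105. Col14a1, a fibril-associated collagen, fell by 1.40, and Col12a1, another of that class, was at −0.05. Of 5 basement membrane genes, 3 fell: Col4a2 by 1.78, Nid1 (nidogen, which links the type IV collagen and laminin networks) by 1.5 and Col18a1 by 1.22. Col4a1, whose product pairs with that of Col4a2, was at −1.42 (adjusted p = 0.0753, limma).

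Of the 5 small proteoglycans Ogn fell, as did Dpt, which was grouped with them and is itself no proteoglycan. Lum (lumican), a regulator of fibril width, read 11.49, 11.76 and 11.62 on day 7 and 11.36, 11.31 and 11.55 on day 105 (log2 −0.22, SE 0.41, adjusted p = 0.769, limma). Dcn (decorin), which binds collagen fibrils and TGF-beta, was at −0.43 (SE 0.44) and Bgn (biglycan), its close relative, at −0.37. Elastic fibre genes fell in 1 of 5, Fbln1 by 1.05, with Eln, the elastin gene, at −0.88 (adjusted p = 0.078, limma).

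Adhesive and matricellular genes fell in 5 of 10, a count that holds Tnc. Fn1 encodes fibronectin, the cell-binding protein of provisional matrix, and read 13.41, 14.15 and 12.18 on day 7 and 11.93, 11.52 and 11.66 on day 105. The days did not overlap, but the call was near the threshold (log2 −1.54, SE 0.56, adjusted p = 0.0454, limma), and 6 of the 15 specimens, when left out, ended it. Tnc, tenascin-C, read 8.25, 7.20 and 7.18 on day 7 and 5.99, 5.31 and 5.67 on day 105 (a difference of −1.89 on the log2 scale). Codes 2 and 3 of day 7 were close to the array median, and all 3 late specimens were below it. Sparcl1, a relative of the collagen-binding protein SPARC, fell by 2.81 (SE 0.51) and Serpinf1, the anti-angiogenic factor PEDF, by 1.45. Sparc itself read 12.84, 13.01 and 12.60 on day 7 and 11.89, 11.39 and 11.75 on day 105, again without overlap, and did not pass (log2 −1.14, SE 0.49, adjusted p = 0.104, limma). Thbs1, thrombospondin-1, was at 0.45, and Ccn3 was at 1.01.

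All 4 fibroblast surface genes fell. Pdgfra and Pdgfrb, the receptors for platelet-derived growth factor that mark fibroblasts and pericytes, fell by 1.39 and 1.78 on the log2 scale, Fap, the fibroblast activation protease, by 1.13 and Thy1, a surface glycoprotein that T cells carry too, by 1.26. Pdgfra read 11.63, 12.03 and 10.46 on day 7 and 10.99, 9.29 and 9.68 on day 105, with overlap through code 1 of day 105. Of the hyaluronan and versican genes, Itih5, whose family binds hyaluronan, fell by 1.77 (SE 0.39, adjusted p = 0.00107, limma), while Has1, a hyaluronan synthase, was at 0.18 and Vcan, the large proteoglycan versican, at 0.11.

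The count of 23 depended on the specimens of the 2 days. It was 13 and 8 without code 1 or 2 of day 7, and 10 without either code 2 or code 3 of day 105. In the same comparison all 9 smooth muscle markers fell (median −3.93), with a summed level between 15.23 and 16.19 (log2 of the summed intensities) on day 7 and between 10.48 and 12.82 on day 105. 5 of 7 adipocyte markers fell (14.86 to 15.63 on day 7, 11.41 to 13.85 on day 105), as did 4 of 6 mesothelium (11.97 to 13.03, then 10.45 to 11.35), 3 of 9 macrophage (15.26 to 15.92, then 13.82 to 14.81) and 2 of 9 endothelium markers (11.68 to 12.50, then 10.71 to 11.71), while 5 of 9 plasma cell markers rose (14.51 to 14.60, then 14.91 to 15.47). The part of these cell types in the fall of the matrix genes was not tested.

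**Figure D1:**
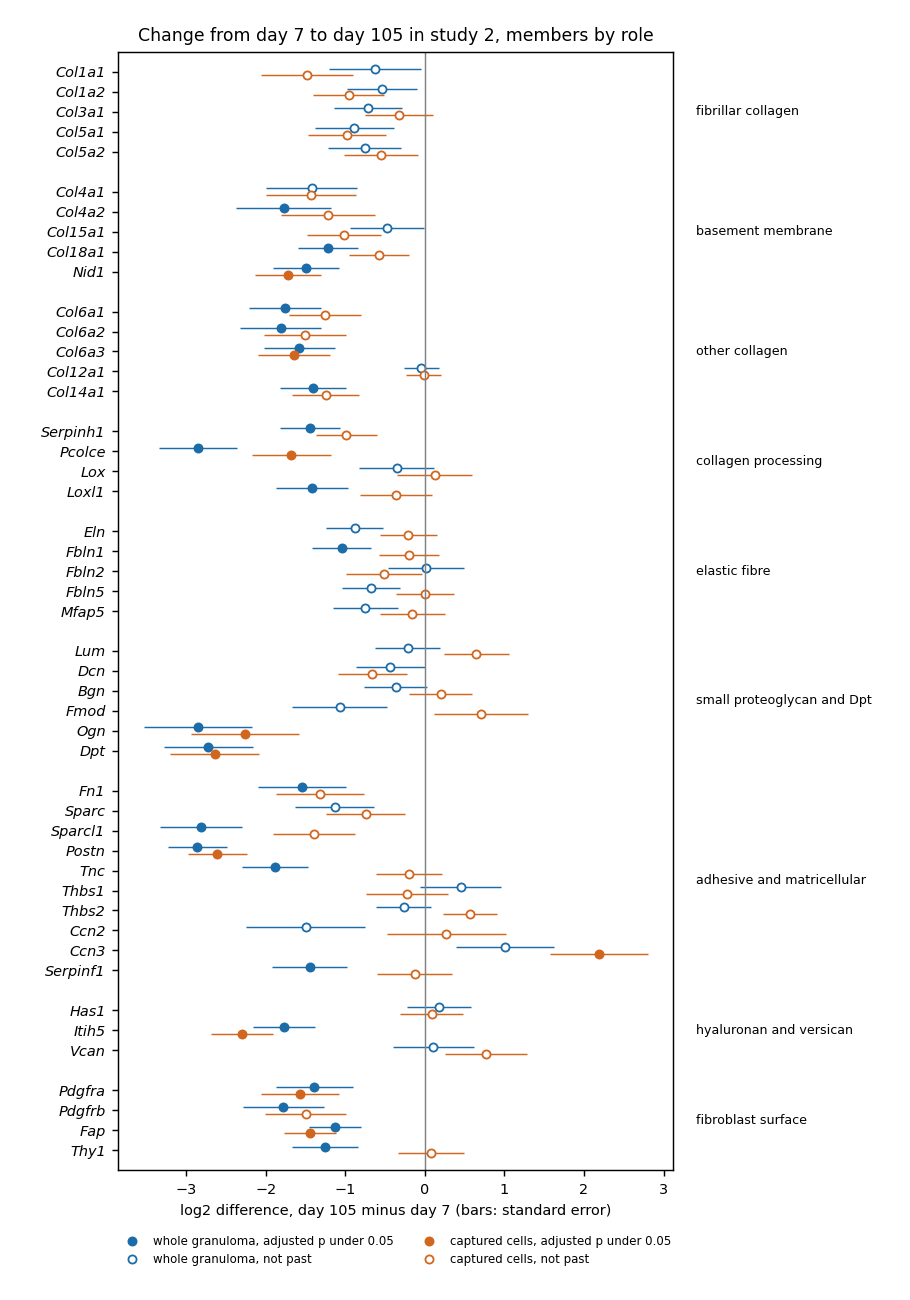
Change in log2 value from day 7 to day 105 of study 2 for the 47 tested members, grouped by role, in whole granuloma (blue) and captured cells (orange), with bars for the standard error of the fit and filled points for an adjusted p under 0.05. In whole granuloma 23 filled points lie left of 0 and none right of it, and the 5 fibrillar collagens are all open. 1 of the 23 is Tnc, which was tested only because it was high early in whole granuloma.

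In captured cells of study 2, 9 of 47 members fell from day 7 to day 105 and 1 rose. Over all genes 2.37% fell and 4.45% rose, and the medians were −0.66 for the members and 0.09 for all genes. The 9 were Dpt, Postn, Itih5, Ogn, Nid1, Pcolce, Col6a3, Pdgfra and Fap, and all 9 were among the 23 that fell in whole granuloma. The 1 that rose was Ccn3. 22 members had all 3 late specimens below all 3 early ones, against 9.74% of all genes.

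Postn in captured cells read 8.65, 7.92 and 8.88 on day 7 and 5.55, 6.28 and 5.78 on day 105, close to the array median on the late day (a 6.12-fold decrease, SE 0.37 on the log2 scale, adjusted p = 1.39e-05, limma). Itih5 read 9.39, 8.96 and 9.74, then 7.60, 6.81 and 6.76, again without overlap (log2 −2.30, SE 0.39, adjusted p = 0.000197, limma). Postn and Itih5 kept their calls whichever specimen was left out. Dpt read 9.91, 8.74 and 7.58, then 6.68, 4.92 and 6.71 (log2 −2.64, SE 0.56, adjusted p = 0.00262, limma), and the call was lost without code 1 of day 7.

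Ogn read 8.77, 8.40 and 9.38 on day 7 and 9.26, 5.77 and 4.74 on day 105. Code 1 of day 105 was at an early level and codes 2 and 3 were not, so that the days overlapped (log2 −2.26, SE 0.68, adjusted p = 0.0358, limma). In whole granuloma code 1 was likewise the highest late specimen, but lay just below the day 7 values. The call was lost without any one of 5 specimens, all 3 of day 7 and codes 2 and 3 of day 105. Fap read 6.65, 6.06 and 6.31, then 4.67, 4.91 and 5.12, below the array median on the late day. Nid1 fell by 1.72, Pcolce by 1.68, Col6a3 by 1.65, Pdgfra by 1.57 and Fap by 1.44 on the log2 scale.

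The fibrillar collagens again had 0 calls of 5, with changes from −1.48 (Col1a1, SE 0.58, adjusted p = 0.116, limma) to −0.32 (Col3a1, SE 0.43). Col1a2 read 11.45, 11.44 and 11.46 on day 7 and 10.55, 10.54 and 10.39 on day 105, with little spread within a day, but the spread used by the test was pooled over all groups (log2 −0.96, SE 0.44, adjusted p = 0.21, limma). Lum was at 0.65 (SE 0.41), Dcn at −0.66 (SE 0.44), Sparc at −0.75 (SE 0.49) and Fn1 at −1.32 (SE 0.56, adjusted p = 0.157, limma). Fn1 read 11.09, 11.29 and 11.34, then 9.77, 10.17 and 9.83, without overlap. Tnc lay between 3.39 and 3.96 on both days, below the array median.

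The control difference was 4.35 to 5.07 on day 7 and 3.10 to 3.88 on day 105 in these arrays. With it as a covariate, an alternative chosen after seeing the data, Postn (−2.64, adjusted p = 0.000198), Itih5 (−1.93, adjusted p = 0.00504), Dpt (−2.28, adjusted p = 0.0237) and Fap (−1.63, adjusted p = 0.00707, limma) kept their calls, and 4 members were called in place of 10. Of those that lost the call, Ogn was at −2.13, Col6a3 at −1.45, Pdgfra at −1.30, Nid1 at −1.26 and Pcolce at −1.12. Whole granuloma kept 22 calls under the same covariate. The count of 10 became 4 and 5 without code 1 or 2 of day 7 and 5 without code 2 of day 105. Of the markers of other cell types, 0 of 9 smooth muscle, 0 of 6 mesothelium and 0 of 9 endothelium markers were called in captured cells, and 6 of the 9 smooth muscle markers were never above the array median on either day. 2 of 7 adipocyte (summed level 12.58 to 12.74 on day 7, 10.32 to 11.03 on day 105) and 1 of 9 macrophage markers (13.20 to 13.59, then 12.37 to 12.94) fell, and their part in the result was not tested.

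The difference between the changes of captured cells and whole granuloma was itself tested, and 0 of 47 members passed, against 3.41% of all genes (limma). In the same test 5 members had an unadjusted p under 0.05, all with a positive difference (captured cells minus whole granuloma). The median difference was 0.39 for the members and 0.18 for all genes. For Postn the change differed by 0.25 (SE 0.49), for Fn1 by 0.23 (SE 0.74) and for Col3a1 by 0.39 (SE 0.57). It was 0.39 for Sparc, 0.87 for Lum, −0.23 for Dcn, −0.42 for Col1a2 and −0.85 for Col1a1 (captured cells minus whole granuloma). That 23 members passed in one tissue type and 10 in the other is therefore no sign that the changes differ, and standard errors of this size do not show that they are equal. Among smooth muscle markers 6 of 9 passed the same test, all with the smaller fall in captured cells.

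**Figure D2:**
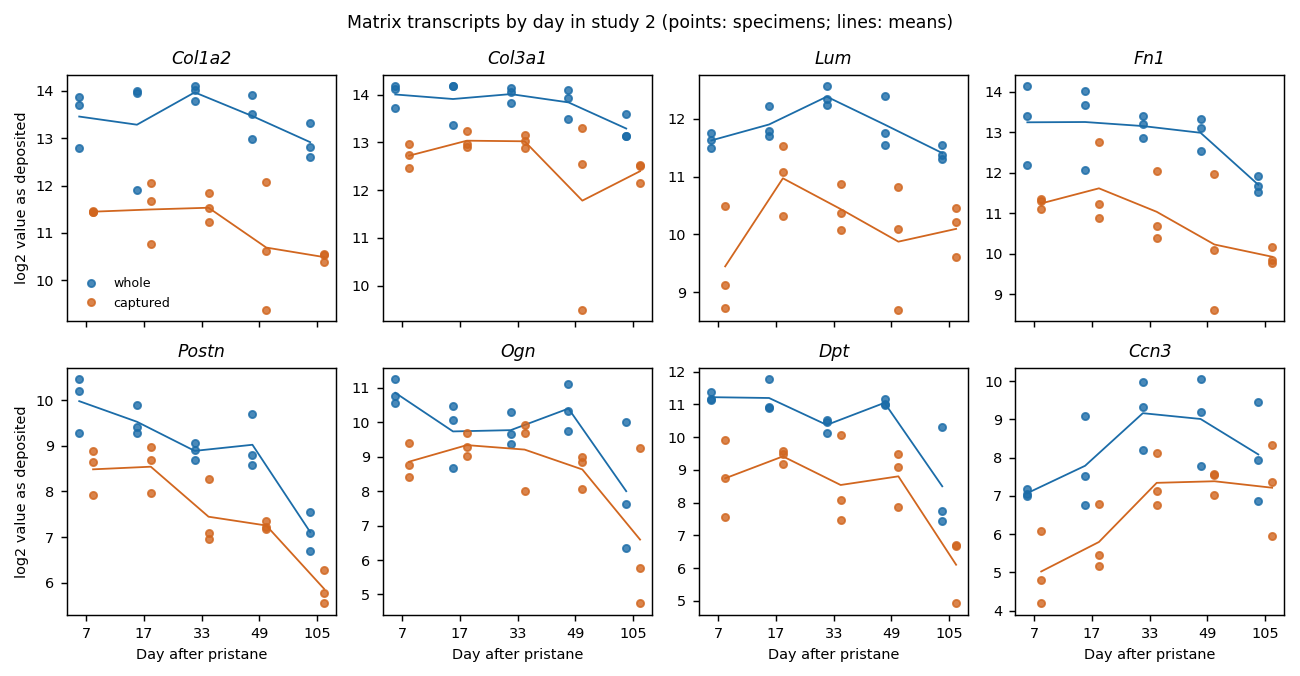
Log2 values as deposited of 8 members by day after pristane in study 2, with a point per specimen and a line through the means, for whole granuloma (blue) and captured cells (orange), whose levels are on different scales and are not to be set against each other; days are evenly spaced. Postn, Dpt and Fn1 have their lowest mean on day 105 in both tissue types, Ogn has a single late specimen near its early level, and Ccn3 is higher from day 33 on.

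Over all 5 days, 22 members, Tnc among them, changed in whole granuloma of study 2 (moderated F test, 24.4% of all genes) and 17 in captured cells (15.2%). The first count was 8 and 11 without codes 2 or 3 of day 105. The second was 8 and 11 without the same codes, 11 without code 1 of day 17, 27 without code 1 of day 49, 8 with the control covariate and 10 with the median over probe sets. Relative to day 7, the median over all 47 members in whole granuloma was at −0.17, 0.11, −0.09 and −1.14 on days 17, 33, 49 and 105, and in captured cells at 0.32, 0.05, −0.36 and −0.66. Day 105 had the lowest mean of the 5 days for 40 of 47 members in whole granuloma and 32 of 47 in captured cells, against 29.8% and 17.5% of all genes.

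Whether single members fell at different times was not tested, and values of some are given here. Postn in whole granuloma read 9.28, 9.40 and 9.89 on day 17, 9.07, 8.90 and 8.69 on day 33, and 9.69, 8.79 and 8.58 on day 49, above all day 105 values (F test, adjusted p = 1.18e-05, limma). Dpt was still at 11.16, 11.02 and 10.98 on day 49. Sparcl1 read 12.09, 11.38 and 11.09 on day 7 and 10.39, 9.96 and 9.70 on day 33, so that day 33 lay below day 7 without overlap (log2 −1.51, adjusted p = 0.0692, limma). Postn on day 33 also lay below its day 7 values, given above, without overlap. Thy1 was highest on day 17 in code 3, at 11.26 against 9.43 and 9.83, the specimen in which the collagens were low.

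Ccn3, a member of the CCN family that binds integrins and Notch, took the opposite course. In whole granuloma it read 7.00, 7.05 and 7.17 on day 7, 8.20, 9.32 and 9.97 on day 33, 7.79, 9.20 and 10.05 on day 49 and 9.44, 7.94 and 6.87 on day 105. The rise to day 33 passed (log2 2.09, SE 0.62, adjusted p = 0.038, limma), and the late specimens overlapped those of day 7. It was the 1 member called between days 7 and 33, against 5.61% of all genes. 5 of the 15 specimens, all of days 7 or 33, ended that call when left out. In captured cells Ccn3 read 4.19, 4.80 and 6.08 on day 7, 7.58, 7.02 and 7.55 on day 49 and 8.33, 7.35 and 5.96 on day 105 (log2 2.19 from day 7 to 105, SE 0.62, adjusted p = 0.0227, limma), with overlap on the last day. The call was lost without codes 1 or 2 of day 7 and without codes 1 or 2 of day 105. With the control covariate it was at 1.82 (adjusted p = 0.0956).

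Between days 7 and 33 of whole granuloma no other member passed in study 2. Col3a1 was at 0.01, Fn1 at −0.09, Sparc at −0.05, Col1a1 at 0.10, Dcn at 0.45, Col1a2 at 0.51 and Lum at 0.76. Postn was at −1.09 (SE 0.37, adjusted p = 0.0694, limma). In study 1 it was at −1.25 (SE 0.41, adjusted p = 0.925), and 0 of 47 members were called, against 0.0233% of all genes, with 5 members at an unadjusted p under 0.05. Lum was at 0.20 and Dcn at 0.16 there, and Col1a1 at −0.38, Col1a2 at −0.33, Col3a1 at −0.32, Fn1 at −0.56 and Sparc at −1.22.

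In captured cells the small proteoglycan genes Dcn and Fmod passed the test over days but not that of day 105 against day 7. Dcn read 11.60, 11.94 and 12.13 on day 7, 13.29, 12.67 and 12.71 on day 17 and 11.57, 10.78 and 11.34 on day 105 (F test, adjusted p = 0.0245, limma). Its late values were all below those of day 7, code 1 only just. Fmod, fibromodulin, which also steers fibril assembly, read 4.14, 4.76 and 4.48 on day 7 and 7.21, 6.03 and 6.65 on day 49, and code 1 of day 105 was still at 6.85 while codes 2 and 3 were at 4.62 and 4.04 (adjusted p = 0.0446, limma). Lum in captured cells was at 8.73, 9.12 and 10.49 on day 7 and at 11.52, 11.07 and 10.32 on day 17, and the F test did not pass (adjusted p = 0.0552, limma).

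**Figure D3:**
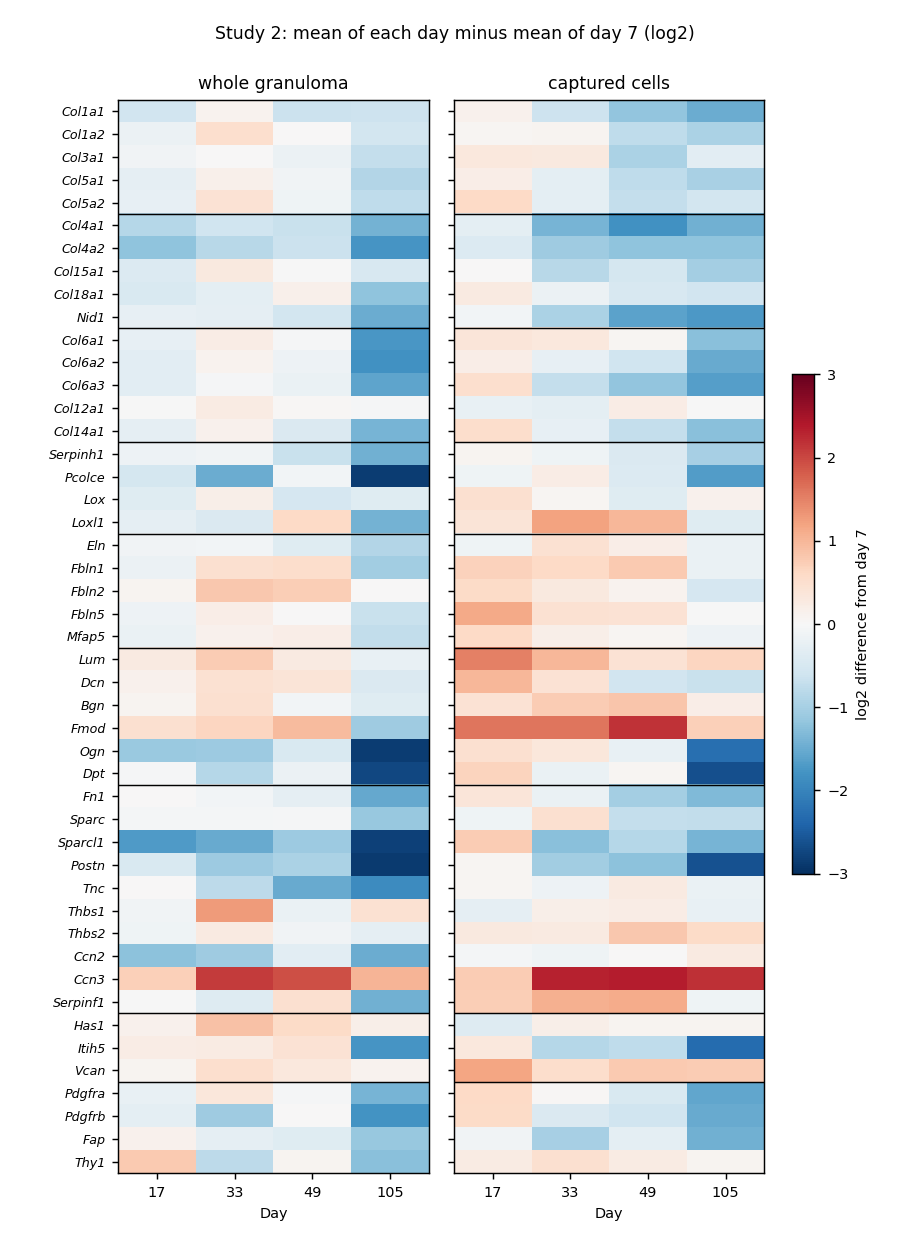
Mean log2 value of each later day minus the mean of day 7 in study 2, for the 47 tested members by role (black lines divide roles), in whole granuloma and captured cells; blue is lower and red higher than day 7, cut at 3 either way. The blue column on day 105 covers most roles, the fibrillar collagens are paler than Ogn, Dpt, Sparcl1 and Postn, and Ccn3 is red from day 33.

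In study 1 few members changed over days. In captured cells 3 did (0.594% of all genes): Itih5, Dpt and Postn. All 3 rested on the single specimen of day 104, code 4687: Itih5 read 4.96 there and between 7.42 and 9.02 on the other days, Dpt 5.59 against 8.27 to 10.01, and Postn 5.05 against 6.63 to 8.85. Without it 0 members passed. The same 3 genes are among the largest decreases of captured cells in study 2, which is a description from 1 specimen, not a repeat with its own error. In whole granuloma of the same code the values were 9.28 for Itih5, 10.64 for Dpt and 8.54 for Postn, each within the range of the other days.

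In whole granuloma of study 1, 1 member changed over days (0.0349% of all genes). Has1 read 9.27 and 8.44 on day 7, 6.20 and 5.62 on day 17, 5.87, 7.99 and 6.38 on day 33 and 6.18 on day 104 (F test, adjusted p = 0.00949, limma), with day 7 above every later specimen. The call was lost without code 1 of day 7 and without code 12 of day 17. In study 2 Has1 was at 7.88, 8.08 and 7.67 on day 7 and 8.97, 9.01 and 8.31 on day 33, with day 33 above day 7, and did not pass over days.

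Setting captured cells against whole granuloma asks how much matrix transcript the dissected cells held. In study 2, 23 of 47 members were lower in captured cells and 7 were higher. Over all genes 35.4% were lower and 34.4% higher, and the medians were −0.43 for the members and −0.02 for all genes. Fbln1, Serpinh1, Sparc, Bgn, Fbln2 and Col1a2 were furthest below whole granuloma, and Pdgfrb was 1 of the 7 above. The direction of Col1a1, also among the 7, turned with the probe set. Values here are quantile-normalized, given as lowest, median and highest over 15 specimens of each tissue type.

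Fbln1, fibulin-1, of elastic fibres and basement membranes, lay at 4.29, 5.53 and 6.41 in captured cells and at 5.97, 7.79 and 8.55 in whole granuloma, and was lower in captured cells in 15 of 15 specimens (log2 −1.94, SE 0.17, adjusted p = 3.43e-13, limma). Serpinh1 lay at 7.40, 8.39 and 9.24 against 8.15, 10.52 and 11.03, also lower in 15 of 15 (log2 −1.81, SE 0.17). Sparc was lower in 15 of 15 too, at 6.96, 10.05 and 11.24 against 10.02, 11.77 and 12.32 (log2 −1.61, SE 0.22). These 3 code for a matrix glycoprotein, a collagen chaperone and a collagen-binding protein. Bgn (−1.47), Fbln2 (−1.40), Dcn (−1.25) and Col6a1 (−1.15) followed, with Fn1 at −1.09.

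Of the chains of type I collagen, Col1a2 lay at 10.38, 11.38 and 11.91 in captured cells and at 10.62, 12.92 and 13.41 in whole granuloma, lower in 13 of 15 specimens (log2 −1.39, SE 0.19, adjusted p = 2.13e-08, limma). Col1a1 lay at 7.73, 9.23 and 10.44 against 5.57, 8.16 and 9.34, higher in 13 of 15 (log2 1.18, SE 0.25, adjusted p = 6.77e-05, limma). The other probe set of Col1a1 was past the threshold the other way (−0.71, adjusted p = 0.00797), so that no direction is given for the gene. The same holds for Col5a1 (0.57 and −0.62 by probe set) and Serpinf1 (−0.81 and 0.48). Col3a1 was at −0.61 (SE 0.19, lower in 11 of 15) and Lum at −0.43 (SE 0.17, lower in 9 of 15).

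Higher in captured cells beside these were Pdgfrb (1.01, SE 0.21, 11 of 15 specimens), Fap (0.60, 10 of 15), Lox (0.58, 11 of 15) and Itih5 (0.54, 11 of 15). Col12a1 (0.66, 14 of 15) is counted with them, but it passed the filter mainly through captured cells and is given without a test. Postn was at 0.33 (SE 0.15, adjusted p = 0.0565, limma). By role, elastic fibre genes were lower in 4 of 5, small proteoglycans with Dpt in 4 of 6 and adhesive and matricellular genes in 5 of 10, with 0 higher in each, and fibroblast surface genes were higher in 2 of 4 and lower in 0. The 10 hold Tnc, given without a test, and Serpinf1, for which no direction is given.

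These directions hold only relative to the other genes. With each array centred on its median, all genes moved to a median of 0.19 and the members split as 12 higher and 15 lower, Col3a1 turned to 0.66 and Lum to 0.20. On the values as deposited, where the median gene was at −1.68, 46 members were lower and 0 higher, and all genes split as 8273 lower and 44 higher. With the control difference as a covariate, 15 were lower and 3 higher. Relative to the median gene, Fbln1 (−2.0 to −1.92), Serpinh1 (−1.79 to −1.65), Sparc (−1.59 to −1.03) and Bgn (−1.45 to −1.10) were lower, and Pdgfrb (1.02) and Lox (0.60 to 0.63) higher, under all 3 scalings.

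In study 1, 36 of 47 members were lower in captured cells and 1 was higher, against 29.0% and 31.5% of all genes. The medians were −1.18 and 0.06. All 5 small proteoglycans, Dpt and 9 of 10 adhesive and matricellular genes were lower. The 10 hold Tnc, given without a test, and Serpinf1. The other probe set of Serpinf1 was past the threshold the other way (0.70 against −1.61), so that no direction is given for it. Given as above, over 15 captured and 8 whole specimens, Bgn lay at 8.76, 9.50 and 10.92 in captured cells and at 11.16, 11.86 and 12.40 in whole granuloma, without overlap (log2 −2.32, SE 0.24, adjusted p = 3.06e-10, limma). Lum lay at 8.38, 9.13 and 10.17 against 10.76, 11.31 and 11.86, without overlap (log2 −2.14, SE 0.24). Fbln5, a fibulin that elastic fibre assembly needs, lay at 5.33, 6.06 and 6.67 against 7.14, 8.09 and 8.66, without overlap (log2 −1.90, SE 0.23). All 3 were lower in 5 of the 5 specimens that had both tissue types.

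Loxl1 (−1.99), Dpt (−1.99), Fn1 (−1.84), Col6a3 (−1.82), Col6a1 (−1.78), Postn (−1.76), Dcn (−1.63), Col1a2 (−1.03) and Sparc (−0.91) were lower as well, and Col3a1 (−0.43) and Col1a1 (0.11) did not pass. For Col1a1 the median over its probe sets was lower (−1.01). Col12a1 was the 1 member higher (1.14, SE 0.18), at 5.70, 6.25 and 6.76 against 5.05, 5.18 and 5.29, without overlap. All its whole granuloma values in study 1 were below the array median, and it passed the filter mainly through captured cells, where it was higher. A stricter filter left it out as well, so that its p is not given, and the count of 1 higher rests on it alone. Members lower in captured cells numbered 42 on the values as deposited, 33 with median centring and 33 with the control covariate. The median over the members less that over all genes was −1.24, and −1.03 on both other scalings.

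In the same comparison all 9 smooth muscle markers were lower in captured cells in both studies (medians −3.37 in study 2 and −3.56 in study 1), as were all 7 adipocyte markers (−1.86 and −2.64). Macrophage markers were lower in 6 and higher in 1 of 9 in study 2 and lower in 9 of 9 in study 1, mesothelium in 5 of 6 in both, and endothelium in 7 and 5 of 9. Plasma cell markers were higher in 6 of 9 and 4 of 9 and lower in 0. The summed smooth muscle level lay between 8.84 and 11.12 in captured cells and 9.02 and 15.34 in whole granuloma of study 2, and between 8.79 and 10.25 and 12.03 and 14.43 in study 1. What part these cells had in the matrix differences was not tested.

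Whether this contrast differed between the studies was tested on their common days. 21 of 47 members passed, close to the 44.9% of all genes, 18 with the difference higher (captured cells closer to or above whole granuloma) in study 2 and 3 lower. Over all genes 22.8% were higher and 22.0% lower, and the medians were 0.87 for the members and 0.03 for all genes. The largest were Postn (2.15, SE 0.28, adjusted p = 6.36e-08, limma), Itih5 (2.05), Ogn (1.98), Ccn3 (1.84), Lum (1.80) and Col6a3 (1.79), and the 3 lower were Fbln1 (−0.84), Serpinh1 (−0.83) and Col12a1 (−0.62). Col12a1, which passed the filter mainly through captured cells, is given without a test. Col3a1 (0.02, SE 0.34), Col1a2 (−0.33), Sparc (−0.49), Dcn (0.63), Fn1 (0.91) and Col1a1 (1.03, adjusted p = 0.06) did not pass. With the control covariate 10 members passed, and without the single day 104 specimen 14 did.

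**Figure D4:**
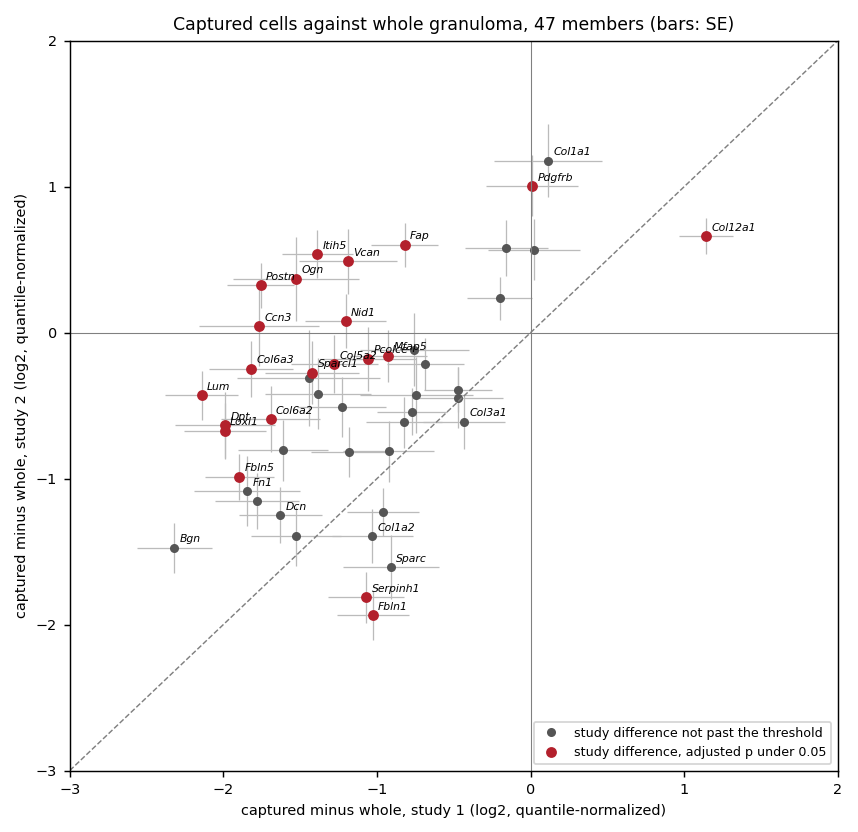
Log2 difference of captured cells minus whole granuloma for the 47 tested members after quantile normalization, study 1 on the horizontal and study 2 on the vertical axis, with bars for standard errors, a dashed line where both are equal and red points where the difference between studies had an adjusted p under 0.05. Most points lie left of 0 and above the dashed line, with Fbln1 and Serpinh1 below it.

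Genes that act on or sense this matrix were followed as 3 lists. Of 14 tested collagen-modifying and cross-linking enzymes, 4 fell and 0 rose from day 7 to day 105 in whole granuloma of study 2 (Pcolce2 by 1.64, P3h3, of the prolyl 3-hydroxylase family, by 1.07, P3h1 by 0.93 and Plod1 by 0.91 on the log2 scale), a share to set beside the 12.9% above, and the median of the list was −0.12. Of 16 TGF-beta pathway genes 3 fell (Tgfb3, a ligand, by 1.60, Ski, a repressor of its signal, by 1.57 and Tgfbi, a target, by 1.15) and 1 rose (Smad7, an inhibitor, 1.01). Of 7 matrix receptors 1 fell, the collagen receptor Ddr2, by 0.90. In captured cells none of the 3 lists had a call in that comparison (limma, 0 of 14, 0 of 16 and 0 of 7).

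Against whole granuloma, 11 of the 14 enzymes were lower and 2 higher in captured cells of study 2, where 35.4% of all genes were lower and 34.4% higher (Plod1, a collagen lysyl hydroxylase, at −1.90, P4ha1, a collagen prolyl hydroxylase subunit, and Pcolce2 both at −1.61). Of the 16 TGF-beta genes 10 were lower and 3 higher (Tgfb3 at −2.20, Ltbp4, which tethers latent TGF-beta to matrix, at −1.96, and Skil at 1.85). Of the 7 receptors 4 were lower and 1 higher (Itgb1, the integrin β1 chain, at −2.35, Ddr1 at −1.92 and Ddr2 at −1.14). In study 1 the counts were 10 lower and 0 higher, 12 and 2, and 6 and 0, beside 29.0% and 31.5% of all genes. Plod1 and Itgb1 were both at −2.0 there.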

How the data were processed

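RNA of 82 Affymetrix arrays, after repeated linear amplification, was measured as captured cells or whole granuloma. The deposited values are log2 intensities from RMA, with Partek also named, per the submitters' processing notes; their versions are not stated there. Of 22690 probe sets, 20393 had 1 gene symbol, 691 several and 1606 none. Each gene was read from its probe set of highest mean. Arrays of a specimen were averaged to 53 values in 19 groups, and limma 3.58.1 (R 4.3.3) fitted all groups with 34 residual degrees of freedom and the specimen code, which 20 of 33 codes share between tissue types, as a random block (correlation 0.121 as deposited, 0.112 after quantile normalization). Genes had to exceed the array median in 3 averages. The members and lists were chosen with earlier results of these data known. The rule for genes named singly took Col1a1, Col1a2, Col3a1, Fn1, Sparc, Lum, Dcn and Postn in each comparison, up to 6 other members with the largest called change in each direction, and up to 3 genes of each other list; further genes were named by role after their values were seen. Alternatives covered scaling, filter, probe set rule, specimen block, a 3′ minus 5′ covariate and leaving out specimens. On simulated data for day 105 against day 7 in whole granuloma of study 2 over 8593 genes, 89.9% of 99 changes of 2 and 37.6% of 101 changes of 1 on the log2 scale were recovered. Changes near 1 were thus often missed there. The simulation had independent noise, no specimen block and far fewer changed genes than the 18.9% called in the data. Its shares therefore do not carry over to the data as they stand. The number of arrays limits the precision.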

Additional observations from a re-analysis of the deposited data

Results flagged for a closer look

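For 21 members, the difference of captured cells minus whole granuloma was not the same in the 2 studies (study 2 minus study 1, log2 scale after quantile normalization, adjusted p under 0.05 in limma, over the days both studies share). That is 44.7% of the 47 members, beside 44.9% of all genes, so the total count is no result about the members. By direction, 38.3% of the members were higher and 6.38% lower, beside 22.8% and 22.0% of all genes. Among collagens the difference was 1.18 for Col5a2, 1.22 for Col6a2, 1.79 for Col6a3 and −0.62 for Col12a1 (which passed the filter mainly through captured cells), and 1.47 for the basement membrane gene Nid1. Among genes of collagen processing and elastic fibres it was −0.83 for Serpinh1, 1.15 for Pcolce, 1.41 for Loxl1, −0.84 for Fbln1, 0.90 for Fbln5 and 0.89 for Mfap5. Of the small proteoglycans Lum gave 1.80 and Ogn 1.98, dermatopontin (Dpt) gave 1.39, and adhesive and matricellular genes 1.28 for Sparcl1, 2.15 for Postn and 1.84 for Ccn3. It was 2.05 for Itih5, 1.59 for Vcan, 1.17 for Pdgfrb and 1.28 for Fap. Study 1 had 5 specimens with both tissue types and study 2 had 15, and study cannot be told apart from the time and handling of the arrays. Only captured cells of days 7 and 17 in study 1 had the 4 specimens needed to check for a value far from the others, which was done for 8 members, with 0 found; groups of 3, with the libraries named above as standing apart, were not checked.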

How the results depend on the processing

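For captured cells against whole granuloma in study 2, 46 members were called on the values as deposited (0 higher, 46 lower), 15 lower and 12 higher with arrays centred on their medians, and 18 (3 higher, 15 lower) with the 3′ minus 5′ covariate. A stricter filter left 0 higher in study 1, and the covariate left 10 study differences. Over days in captured cells, study 2 gave 10 calls with the median over probe sets and 8 with the covariate, and study 1 gave 0 without day 104 and 29 with arrays as units and the month in the titles as a block. That last setting has no term for the specimen and takes the 5 arrays of the 1 specimen of day 104 as replicates, so the 29 are no evidence of more changes. For day 105 against day 7 in captured cells, the median over probe sets left 0 higher and the covariate left 4 called, 0 higher and 4 lower. Settings chosen after seeing the data were that covariate for the days and leaving out 2 libraries: day 33 in whole granuloma of study 2 gave 4 calls without captured code 2 of day 49 and 2 without whole code 3 of day 17, which also gave 1 for the tissue difference of the change. Day 33 in study 1 gave 1 with title letters as separate specimens. Directions turned on the deposited scale of study 2 for Col1a1 (−0.47), Postn (−1.38), Pdgfrb (−0.67), Col12a1 (−1.25), Fap (−1.30), Lox (−1.05), Col5a1 (−1.04) and Itih5 (−1.06), and for the study difference of Col3a1 (−0.71). They turned with centring for Col3a1 (0.66) and Lum (0.20), with the covariate for Lum (0.16), and with the median over probe sets for Col5a1 (−0.28) and, in study 1, Col1a1 (−1.01). The cause was not tested.

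Leaving out 1 specimen at a time gave 27 to 33 calls between tissue types in study 2 (6 to 9 higher, 20 to 26 lower), 33 to 39 in study 1 (1 higher, 32 to 38 lower) and 14 to 27 study differences. Over days the ranges were 8 to 24 (whole) and 8 to 27 (captured) in study 2, and 0 to 1 and 0 to 3 in study 1. For day 105 they were 8 to 26 in whole granuloma (0 higher) and 4 to 14 in captured cells (0 to 1 higher, 4 to 13 lower), for day 33 they were 0 to 4 and 0 to 1, and for the tissue difference of the change 0 to 1. With no replicate block no count changed (30 in study 2, 37 in study 1, 21 study differences, 23 and 10 on day 105). With the specimen as a fixed replicate block in study 2 alone, 27 members were called between tissue types.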
